A study of Homo sapiens with 2 samples.

Results

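The genes described are 10 of the 16951 in the deposited table, chosen by symbol: the aldo-keto reductases AKR1C1, AKR1C2, AKR1C3, AKR1B1 and AKR1B10, and the oxidative stress genes NQO1, GCLM, GCLC, TXNRD1 and SRXN1. They were measured by RNA sequencing of total RNA from FaDu cells, a line established from a human squamous cell carcinoma of the hypopharynx. The study had 2 libraries, both from day 2: 1 from FaDu cells with a control shRNA (shControl) and 1 from FaDu cells with an shRNA against the kinesin gene KIF2C (shKIF2C). An shRNA is an expressed hairpin RNA that the cell trims into a guide for destroying its target mRNA. The table names its libraries C1 and D1, and no label ties either code to a condition, so each ratio is D1 over C1 and cannot be read as knockdown over control. KIF2C, the target of the shRNA, had 783 reads in C1 and 3036 in D1 (log2 ratio 2.04, 95% counting interval 1.93 to 2.16), which goes against reading the letters C and D as control and knock-down.

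NRF2, encoded by NFE2L2, is a transcription factor that its partner KEAP1 holds at a low level by marking it for degradation. When electrophiles or oxidants modify KEAP1, NRF2 accumulates, pairs with a small MAF protein and binds antioxidant response elements near genes for quinone and carbonyl reduction, glutathione synthesis and the thioredoxin system. The pathway is often activated by mutation in squamous cancers, and the aldo-keto reductases AKR1C1, AKR1C2, AKR1C3 and AKR1B10 are among its most inducible targets in human epithelium. Aldo-keto reductases use NADPH to turn aldehydes and ketones, steroids and prostaglandins among them, into alcohols.

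The 3 AKR1C genes lie side by side on chromosome 10, and AKR1C1 and AKR1C2 resemble each other also before an annotated start of each. Compared here are the 250 bases before such a start of AKR1C1 (chr10:4963165-4963414, plus strand) and of AKR1C2 (chr10:5003858-5004107, minus strand). The AKR1C2 window lies inside the span given for its gene, which reaches 5018000, so annotated sequence of the gene continues upstream of it. The 2 windows share an identical run of 245 bases. Both are printed from RefSeq, build GRCh38.p14, 5′ to 3′, and capitals mark the bases outside that run.
AKR1C1: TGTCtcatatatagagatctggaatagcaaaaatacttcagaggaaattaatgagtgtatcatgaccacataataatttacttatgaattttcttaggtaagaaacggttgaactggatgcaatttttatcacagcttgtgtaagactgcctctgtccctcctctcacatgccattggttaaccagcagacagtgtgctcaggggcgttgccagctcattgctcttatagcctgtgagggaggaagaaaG
AKR1C2: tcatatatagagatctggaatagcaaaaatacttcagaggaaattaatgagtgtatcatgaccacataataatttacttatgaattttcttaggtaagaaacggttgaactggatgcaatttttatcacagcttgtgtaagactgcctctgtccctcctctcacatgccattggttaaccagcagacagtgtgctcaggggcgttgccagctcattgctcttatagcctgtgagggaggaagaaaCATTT
The windows before the 2 annotated starts of AKR1C3 shared runs of at most 19 bases with either of these. They were still similar in sequence: aligned over 234 to 241 bases, they were 76.8% to 79.1% identical to the AKR1C1 and AKR1C2 windows. AKR1C1 and AKR1C2 were 99.6% identical over 246 aligned bases.

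GCLM and TXNRD1 are shown because they held a match to TGACNNNGC, the core of the antioxidant response element, searched on both strands of the 250 bases before each annotated start. Capitals mark the match. The GCLM window is chr1:93909431-93909680 on the minus strand, and its match lies 34 to 26 bases before the start. The 2 TXNRD1 windows are chr12:104215529-104215778 and chr12:104286782-104287031 on the plus strand, with matches 99 to 91 and 102 to 94 bases before their starts.
GCLM: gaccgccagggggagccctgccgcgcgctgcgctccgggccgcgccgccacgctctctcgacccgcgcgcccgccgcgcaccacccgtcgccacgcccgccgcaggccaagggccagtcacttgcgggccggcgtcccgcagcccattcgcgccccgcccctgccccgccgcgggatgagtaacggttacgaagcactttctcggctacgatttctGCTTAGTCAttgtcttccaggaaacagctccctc
TXNRD1, upstream start: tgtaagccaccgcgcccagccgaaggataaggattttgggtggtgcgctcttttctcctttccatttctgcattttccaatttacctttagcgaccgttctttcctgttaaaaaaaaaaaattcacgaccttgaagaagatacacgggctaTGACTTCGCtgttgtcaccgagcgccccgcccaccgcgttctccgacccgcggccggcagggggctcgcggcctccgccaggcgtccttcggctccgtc
TXNRD1, downstream start: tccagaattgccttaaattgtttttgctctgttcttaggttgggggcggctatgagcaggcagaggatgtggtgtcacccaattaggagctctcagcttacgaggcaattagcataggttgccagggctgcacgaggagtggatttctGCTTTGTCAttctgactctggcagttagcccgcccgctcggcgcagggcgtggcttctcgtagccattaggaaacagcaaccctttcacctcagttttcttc
Of 35116 RefSeq windows of this length over all genes, 10.9% held such a match. Of the 9 genes with a window in that table, 2 did. These 9 genes had 12 windows, and the matches lay in the GCLM window and the 2 TXNRD1 windows. AKR1B10 had no entry. No match in the other windows says only that these letters are not in those bases. None of the windows of the 9 genes held TGACTCA, the AP-1 site, which 4.20% of all windows held.

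Levels spanned a wide range, and their order was the same in both libraries. By TPM, which counts transcripts per 1000000 after allowing for length, TXNRD1 stood highest with 484.35 in library C1 and 370.82 in library D1. NQO1 followed with 445.25 and 359.35, and AKR1B1 with 248.55 and 202.71. The glutathione and peroxiredoxin genes lay in the middle, GCLC at 94.97 and 83.01 TPM, GCLM at 49.17 and 60.30, and SRXN1 at 43.36 and 52.15. The inducible aldo-keto reductases were the lowest of the set, AKR1C1 at 12.36 and 15.39, AKR1C3 at 10.38 and 10.55, AKR1B10 at 2.55 and 3.81, and AKR1C2 at 0.81 and 2.11. Together the 10 genes took 0.187% of the counts of C1 and 0.160% of those of D1. With 1 library a group no spread between replicates is known, so neighbours in this order cannot be separated beyond counting error.

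**Figure D1:**
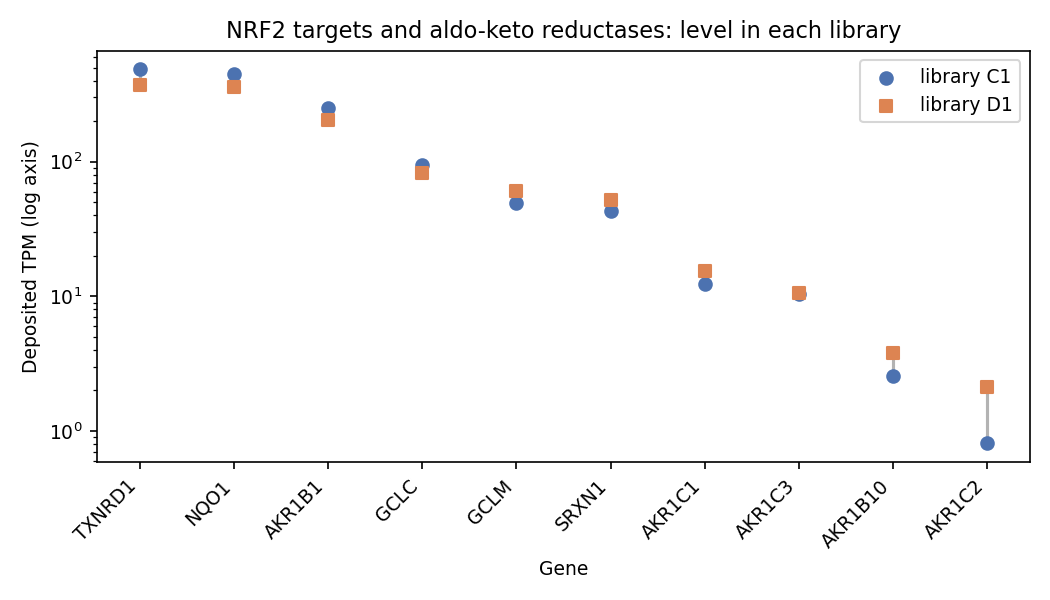
Deposited TPM (log axis) of each gene in library C1 (circles) and library D1 (squares), with a line joining the 2 values of a gene. TXNRD1, NQO1 and AKR1B1 stand above 200 TPM in both libraries, and AKR1C2 and AKR1B10 below 4.

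Of the 10 genes, 9 differed by less than 2-fold between the libraries. Only 1 of the 10, AKR1C2, was at least 2-fold higher in D1, and none was at least 2-fold lower, while 2.4% of the 13225 genes that reached 1 CPM in either library were 2-fold higher, 4.54% were 2-fold lower and 6.95% were one or the other. CPM is counts per 1000000 reads of the effective library size. All 10 genes passed that filter. Of the genes past it, 99.3% had a lower ratio than AKR1C2 and 95.2% a lower ratio than AKR1B10. The share was 90.8% for AKR1C1, 87.3% for GCLM and 86.3% for SRXN1. It was 67.7% for AKR1C3, 44.7% for GCLC, 33.8% for AKR1B1, 32.7% for NQO1 and 26.4% for TXNRD1. The median log2 ratio of the 10 was 0.29, against 0.0096 for all genes, and 6 of 10 lay above 0, against 51.0% of all genes. Among the 7 at 10 CPM or more the median was -0.0395 and none reached 2-fold, and among the 4 with whole counts in both libraries the median was -0.0935. The 95% counting interval left out 0 for 8 of the 10 genes and for 58.1% of all genes, so at this depth an interval without 0 was common. These intervals cover counting error only, and no difference has a replicate check or a test between conditions.

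**Figure D2:**
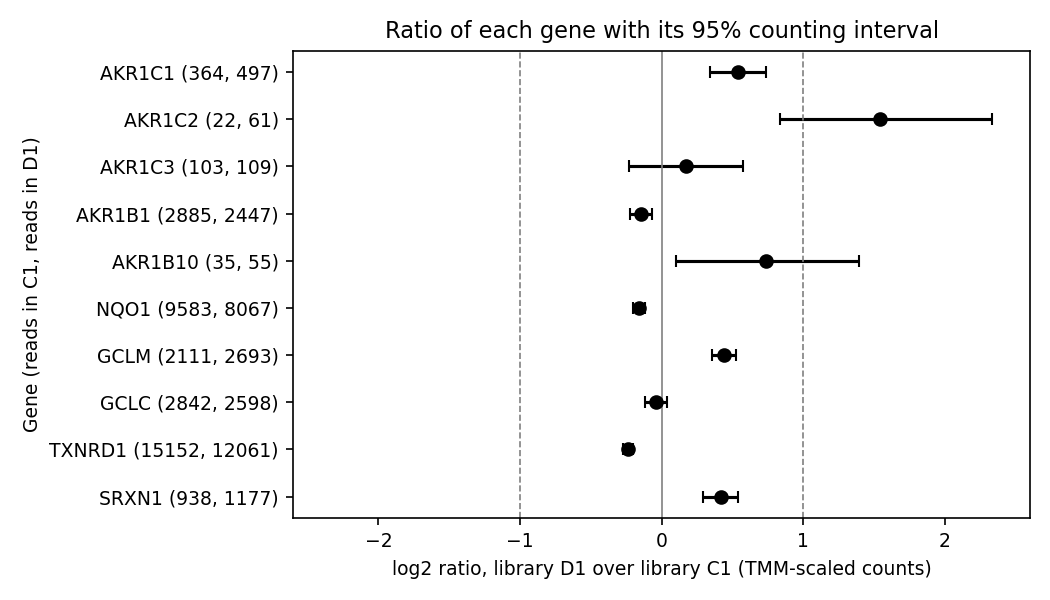
log2 ratio of library D1 over library C1 for each gene (TMM-scaled counts), with its 95% counting interval; reads in C1 and D1 are in brackets and dashed lines mark 2-fold. AKR1C2 alone lies past 2-fold at 1.54, and the widest intervals belong to AKR1C2 and AKR1B10, which have the fewest reads.

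AKR1C1 encodes a hydroxysteroid dehydrogenase that inactivates progesterone (NCBI gene 1645, chromosome 10 from 4963415 to 4983283 in GRCh38.p14). Its estimated counts were 363.5 in C1 and 497.01 in D1. After scaling it was 1.45-fold higher in D1, a log2 ratio of 0.54 (0.34 to 0.74), and 90.8% of genes past the filter had a lower ratio. AKR1C2 encodes the enzyme that reduces dihydrotestosterone to a weak androgen (gene 1646, chromosome 10 from 4987775 to 5018000). It had 22.46 and 60.84 estimated counts, so it was rare in both libraries. Its level was 2.91-fold higher in D1, a log2 ratio of 1.54 whose interval of 0.84 to 2.34 includes differences below 2-fold.

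AKR1C3 encodes the enzyme that makes testosterone from androstenedione and also forms prostaglandin F (gene 8644, chromosome 10 from 5048781 to 5107686). It had 103.04 and 109.15 estimated counts, and its log2 ratio of 0.17 (-0.23 to 0.57) could not be told from 0 at this depth. AKR1C1 and AKR1C2 did not have the same ratio within counting error, which does not cover how reads matching both genes were divided. AKR1C2 exceeded AKR1C1 by 1.0 on the log2 scale (0.27 to 1.82), while AKR1C3 minus AKR1C1 was -0.37 (-0.82 to 0.08). Within the summed AKR1C reads, AKR1C2 took 4.50% in library C1 (exact interval 2.84 to 6.73) and 9.15% in library D1 (7.07 to 11.6). AKR1C1 took 74.4% and 74.5% of them. AKR1C3 took 21.1% and 16.3% of the reads but 44.1% and 37.6% of the summed TPM, since the transcript length implied by its counts and FPKM was 1137 bases, against 3369.9 for AKR1C1 in library C1.

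The counts of all 3 AKR1C genes were fractions in both libraries, like 48.9% of all genes in C1 and 48.2% in D1, as arises when RSEM divides a read among the transcripts it matches. In the GENCODE 29 transcripts, 48.1% of the distinct 50-base words of the protein-coding AKR1C2 transcripts occur in a transcript of another gene, and 47.0% occur in AKR1C1. For AKR1C1 the share was 27.0%, with 26.6% found in AKR1C2, and for AKR1C3 it was 9.55%. With 100-base words the shares were 28.3% for AKR1C2, 16.3% for AKR1C1 and 3.85% for AKR1C3. The read length and the annotation behind the counts are not stated in any source used here. The split between AKR1C1 and AKR1C2, and with it the 2-fold call of AKR1C2, is therefore uncertain.

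Summing the family before the ratio does not depend on that split. The AKR1C genes together had 489 reads in C1 and 667 in D1, giving a log2 ratio of 0.54 (0.37 to 0.71). AKR1C1 gave 74.4% and 74.5% of those reads, so the sum had to lie near its own ratio of 0.54. AKR1C1 and AKR1C2 alone, the pair with the uncertain split, had 386 and 558 reads. Their summed log2 ratio was 0.62 (0.43 to 0.81), between the ratios of the single genes. The length implied for AKR1C1 was 3369.9 bases in C1 and 3547 in D1, a shift of 0.07 on the log2 scale from the median gene. For the other 9 genes the shift was at most 0.0064. By deposited TPM the AKR1C1 ratio was accordingly 0.46 above the median gene, against 0.53 by counts.

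AKR1B1 encodes aldose reductase, which converts glucose to sorbitol (gene 231, chromosome 7 from 134442350 to 134459239). It had 2885 reads in C1 and 2447 in D1, giving a log2 ratio of -0.15 (-0.23 to -0.07). AKR1B10 encodes a related reductase of retinaldehyde and other aldehydes (gene 57016, chromosome 7 from 134527567 to 134541412). It had 34.88 and 54.52 estimated counts, a log2 ratio of 0.73 (0.10 to 1.40). The neighbouring paralog AKR1B15 had more, 160.8 and 113.52, and its ratio of -0.41 (-0.77 to -0.05) went the other way. AKR1B10 minus AKR1B15 was 1.14 on the log2 scale (0.41 to 1.90). That interval does not cover how reads matching both genes were divided, so the split of this pair is uncertain too.

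Counts of AKR1B10 and AKR1B15 were also fractions. Of the 50-base words of AKR1B10, 11.6% occur in AKR1B15 and 7.14% in the pseudogene AKR1B10P1. AKR1B10 took 17.9% of the reads of the pair in library C1 (12.8 to 23.9) and 32.5% in library D1 (25.5 to 40.2). These shares use counts rounded gene by gene (55 of 169 reads in D1). Summed before rounding, the pair had 196 and 168 reads, a log2 ratio of -0.13 (-0.44 to 0.17). AKR1B15 gave most of those reads. AKR1B1 itself had whole counts. Of its 50-base words, 4.78% occur in another gene. None of its 100-base words does, against 2.01% of those of AKR1B10.

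**Figure D3:**
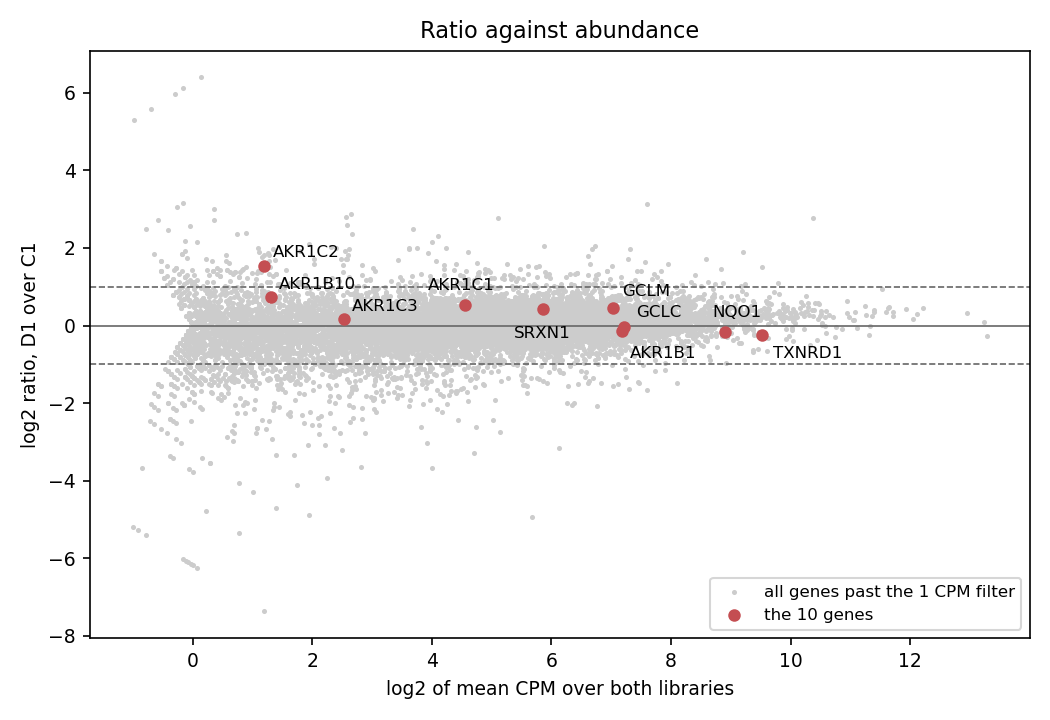
log2 ratio of D1 over C1 against the log2 of mean CPM for all genes past the 1 CPM filter (grey), with the 10 genes in red and dashed lines at 2-fold. The highest ratios of the 10, AKR1C2 at 1.54 and AKR1B10 at 0.73, belong to its rarest genes, where the grey cloud is widest, and the 5 genes at 100 CPM or more lie between -0.24 and 0.44.

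Among the abundant NRF2 targets, NQO1 and TXNRD1 were slightly lower in library D1. NQO1, which reduces quinones without forming reactive semiquinones, had 9582.72 and 8066.96 estimated counts (gene 1728, chromosome 16 from 69709401 to 69726560). Its log2 ratio was -0.16 (-0.20 to -0.12), and 0.86% of its 50-base words occur in another gene. TXNRD1 encodes the selenoprotein that reduces thioredoxin with NADPH (gene 7296, chromosome 12 from 104215779 to 104350307). It had 15152 and 12061 reads, a log2 ratio of -0.24 (-0.27 to -0.20), and none of its words is shared. NQO1 lay above 32.7% of genes and TXNRD1 above 26.4%, so both stood within the middle of the distribution.

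SRXN1 encodes sulfiredoxin, which restores peroxiredoxins inactivated by overoxidation (gene 140809, chromosome 20 from 646615 to 653200). It had 938 reads in C1 and 1177 in D1, giving a log2 ratio of 0.42 (0.29 to 0.54). SRXN1 minus TXNRD1 was 0.66 on the log2 scale (0.53 to 0.79), a difference that scaling by library size does not change. In GENCODE 29, 84.7% of the 50-base words of SRXN1 lie also in the overlapping gene AL121758.1, although the SRXN1 counts were whole. Whether reads of that gene are counted in SRXN1 was not tested.

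The subunits of glutamate-cysteine ligase, the rate-limiting enzyme of glutathione synthesis, differed from each other. GCLC, the catalytic subunit (gene 2729, chromosome 6 from 53497341 to 53545101), had 2842 and 2598 reads, a log2 ratio of -0.04 (-0.12 to 0.04). GCLM, the modifier subunit that raises the activity of the enzyme (gene 2730, chromosome 1 from 93885199 to 93909430), had 2111.38 and 2693.24 estimated counts, a log2 ratio of 0.44 (0.36 to 0.52). GCLM minus GCLC was 0.48 (0.37 to 0.59), and the TPM of GCLC over that of GCLM was 1.93 in library C1 and 1.38 in library D1. Of the 50-base words of GCLC, 7.42% occur in another gene, with 6.93% in AL033397.1. With 100-base words the share was 6.19%. For GCLM the shares were 1.16% and 0%. Whether reads of AL033397.1 are counted in GCLC was not tested. GCLM and TXNRD1, which both held the response element core in the windows printed above, had ratios of opposite sign. A link between the match and the ratio was not tested.

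The regulators of the pathway went both ways, and the lower ones differed by more. NFE2L2 had 3093 and 3235 reads, a log2 ratio of 0.15 (0.08 to 0.23), and KEAP1 had 1112 and 1318, a ratio of 0.34 (0.22 to 0.45). Lower values were seen for SQSTM1, an autophagy receptor that binds KEAP1 (-0.67), MAFK, a small MAF partner (-0.65), and BACH1, a repressor that competes for the same elements (-0.59). BTRC, a receptor of the ubiquitin ligase that also acts on NRF2, had -0.48 and the small MAF gene MAFG -0.28. None of the 16 regulators past the filter reached 2-fold, beside 6.95% of all genes. Of the 16, 6 lay above 0 and 10 below, while 51.0% of all genes lay above 0. Their median was -0.15 against 0.0096 for all genes.

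Other NRF2 targets went both ways, though 18 lay above 0 and 8 below, while 51.0% of all genes lay above 0. Of 26 past the filter, 3 were at least 2-fold higher, 2 at least 2-fold lower and 21 lay between, with a median of 0.10, beside 2.4% of all genes 2-fold higher and 4.54% 2-fold lower. Those at least 2-fold higher were ALDH3A1, an aldehyde dehydrogenase (1.22), CYP4F11, a fatty acid hydroxylase (1.07), and SLC48A1, a heme transporter (1.04). SLC48A1 was chosen after its value was seen. At least 2-fold lower in D1 were ABCC3, an efflux pump for conjugates (1052 and 386 reads, -1.36), and SLC6A6, a taurine transporter (-1.27). Among 6 other aldo-keto reductases past the filter none reached 2-fold, beside 6.95% of all genes either way. AKR1A1, aldehyde reductase, had 0.62 and KCNAB2, a potassium channel beta subunit of the same superfamily, -0.82.

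Genes of the pathways that GCLM, TXNRD1, SRXN1 and the reductases feed or draw on were set beside all genes past the filter. Of all genes, 2.4% were at least 2-fold higher in D1, 4.54% at least 2-fold lower and 6.95% one or the other. The counting interval left out 0 for 15 of 23 glutathione genes, 11 of 23 thioredoxin and peroxiredoxin genes and 11 of 18 genes of NADPH supply, beside 58.1% of all genes. Of 23 glutathione genes past the filter, 1 was at least 2-fold higher and none lower (median 0.11): CHAC1, which degrades glutathione, at 1.41. HAGH, a glyoxalase, had -0.80 and GSTT2B, a glutathione transferase, 0.73. Of 23 thioredoxin and peroxiredoxin genes, a single one was at least 2-fold lower (median 0.038): TXNIP, which binds thioredoxin, at -3.16. GLRX, a glutaredoxin, had -0.94, MSRB1, a methionine sulfoxide reductase, -0.45 and PRDX2, a peroxiredoxin that thioredoxin reduces, 0.45. Of 18 genes of NADPH supply, 1 was at least 2-fold higher and none lower (median 0.14): ALDH1L2, a mitochondrial folate enzyme, with 37 and 143 reads (2.03). MTHFD2, another mitochondrial folate enzyme, had 0.83, and ME3, a mitochondrial malic enzyme, -0.79.

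Among 22 enzymes of steroid, prostaglandin and retinoid metabolism past the filter, which share substrates with the aldo-keto reductases, 3 were lower by 2-fold or more, with no higher one (median -0.001), beside the same 4.54% lower and 2.4% higher over all genes. These were SULT2B1, a cholesterol sulfotransferase (120 and 6 reads, -4.12, interval -5.71 to -3.07), HPGD, which inactivates prostaglandins (30 and 8 reads, -1.75), and PTGES, a prostaglandin E synthase (-1.44). SULT2B1 and HPGD reached 1 CPM in C1 only, so they passed the filter through the library where they were higher. HSD17B1, which activates estrogen, had 0.71. SOD2, the mitochondrial superoxide dismutase and not a core NRF2 target, had -0.68 by counts (its TPM was 338.31 in C1 and 156.12 in D1, a larger difference), while SOD1 had 0.14 and catalase (CAT) 0.08. Under plain library totals, the medians of 5 of these 8 lists changed sign, all but those of the regulators, NADPH supply, and steroid, prostaglandin and retinoid enzymes.

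**Figure D4:**
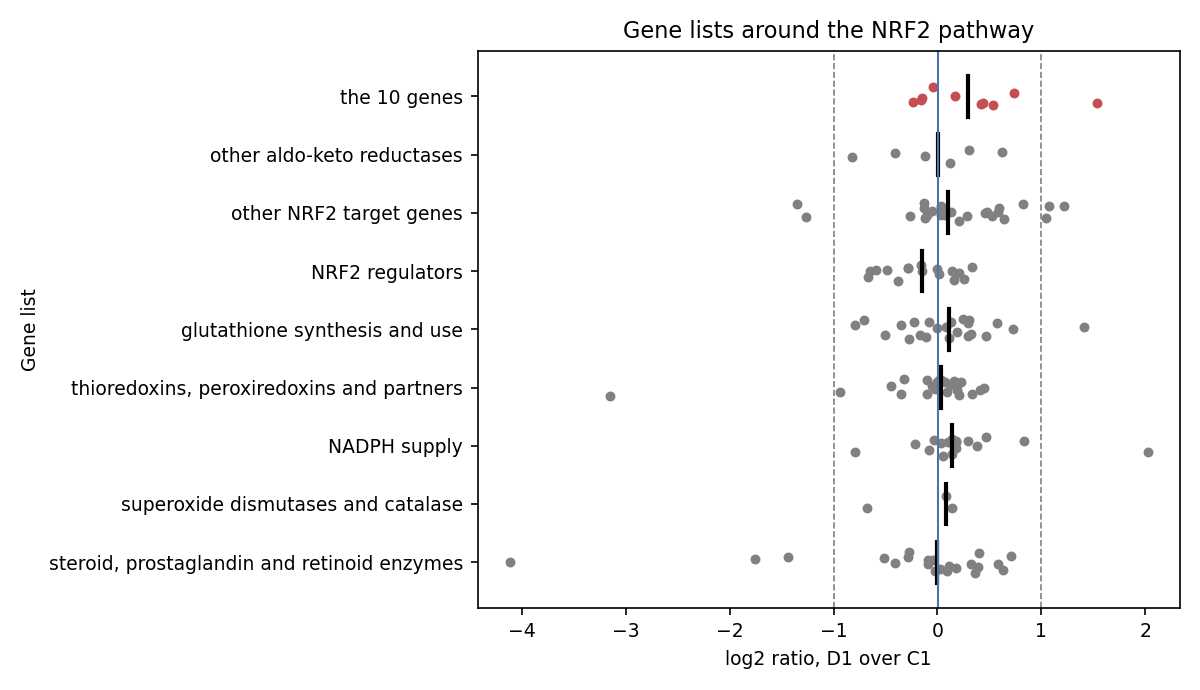
log2 ratio of D1 over C1 for each gene past the 1 CPM filter in the 10 genes (red) and in 8 lists around the NRF2 pathway (grey), with list medians as black bars, the median of all genes as a blue line and 2-fold as dashed lines. The list medians lie between -0.15 and 0.14, and that of the 10 genes at 0.29.

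Plain library totals put the median of all genes at -0.11 and deposited TPM put it at -0.14, against 0.0096 with TMM, the trimmed mean of M values. The sign of each of the 10 genes was kept under plain totals, DESeq2 size factors, TPM and FPKM, and relative to the median gene TXNRD1 lay at -0.25 in all of these. The libraries held 18189742 and 18560024 estimated counts. Squamous markers were present in both, and the 6 summed to 1100 CPM in library C1 and 3534 in library D1. KRT5, KRT14, KRT6A and TP63 were higher in D1, while EPCAM (log2 ratio -0.08) and CDH1 (-0.19) were slightly lower. Fibroblast markers summed to 10.6 and 4.72 CPM. Leukocyte markers summed to 56.0 and 59.5 CPM, nearly all from CD68, and PTPRC had 15 and 11 reads. Endothelial markers summed to 54.5 and 16.3 CPM, nearly all from CDH5, and PECAM1 had 12 and 13 reads. The part of these marker differences in the ratios of the 10 genes was not tested.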

How the data were processed

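Gene expression was profiled in 2 libraries of FaDu cells, 1 per condition. Neither library code could be assigned to a condition, and no value given depends on such an assignment. The authors deposited estimated counts for each gene without normalization, per the file headers, of which 48.9% (C1) and 48.2% (D1) were not whole at the 2 decimals given. The authors also deposited TPM and FPKM values, per the file headers. The submitters' processing notes name Bowtie2, RSEM and the hg38 build; their versions and the annotation are not stated in any source used here.

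Counts were rounded to whole numbers and scaled by TMM in edgeR 4.0.16 (R 4.3.3), so that 1 CPM is 19.0 reads in C1 and 17.8 in D1. Ratios were taken after adding 0.5 counts per library, with the exact Clopper-Pearson 95% interval of the share of reads in library D1; differences between genes have the exact conditional interval. A count of 0 allows up to 3 counts. Genes that reached 1 CPM in either library were compared by a 2-fold size rule, since with 1 library per group no test was possible. The steps were checked on simulated whole counts, with no reads shared between genes. Changes were simulated only in genes with a mean of at least 100 counts, so AKR1C2 and AKR1B10 lie outside that check. DESeq2 1.42.0 size factors, plain totals, TPM, FPKM (0.01 added), other filters, added counts and a 3-fold rule were tried. Words of 50 and 100 bases were compared across GENCODE 29 transcripts, whose annotation may differ from that behind the counts. Promoter sequences came from RefSeq (GRCh38.p14).

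All 10 genes, KIF2C, 5 pathway regulators, the paralogs, and up to 4 genes per list with the largest ratio were named. The members and lists were chosen with earlier results of these data known.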

Additional observations from a re-analysis of the deposited data

How the results depend on the processing

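The median ratio of the 10 genes and the number at least 2-fold higher or lower kept their direction, and the count its size, under plain library totals, DESeq2 size factors, TPM, FPKM, unrounded counts, 5 added counts and no expression filter. With a 10 CPM filter the 10 genes had 0 at least 2-fold higher and a median of -0.0395, and with whole counts only 0 and -0.0935, because the first leaves out AKR1C2, AKR1C3 and AKR1B10 and the second AKR1C1, AKR1C2, AKR1C3, AKR1B10, NQO1 and GCLM. At 3-fold, 0 of them were higher. Over all genes, the 318 higher and 601 lower became 1040 and 1671 with no filter, 171 and 216 at 10 CPM, 179 and 334 with whole counts only, and 80 and 202 at 3-fold. The higher share of called genes was 34.6% with TMM, 23.8% with plain totals, 21.8% with TPM, 24.3% with FPKM and 44.2% at 10 CPM. Of the 10 single ratios none changed sign with plain totals, TPM or FPKM, and 5, 3 and 5 of them stayed within their own counting interval. Summing families moved AKR1C2 to 0.54 and AKR1B10 to -0.15; the construction of the sum sets both. No paired analysis was possible because each group has 1 library. Depth limits AKR1C2, AKR1B10 and AKR1C3 most.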
